A study of Mus musculus with 6 samples.

Results

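The genes described are 6 genes of metal handling: the metallothioneins Mt1, Mt2 and Mt3, the metal-sensing transcription factor Mtf1, the zinc exporter Slc30a1 (ZnT1) and the zinc importer Slc39a14 (ZIP14). They were taken by their gene identifiers as 6 of the 38293 genes in a table of RNA-seq read counts, and all 6 were among the 14746 genes that passed the filter on low counts. The set was selected on the level of Mt2, which had been noted as lower in the knockout hearts of these same data, so the differences between genotypes below are given as a description, without a test.

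The samples were cardiac tissue of 3 control mice (WT) and 3 mice without Zeb2 in cardiomyocytes (Zeb2 cKO), collected 14 days after myocardial infarction by permanent occlusion of the left anterior descending (LAD) coronary artery. Zeb2 cKO mice carried 2 floxed alleles of Zeb2 and a Cre recombinase driven by the Myh6 (αMHC) promoter, which is active in cardiomyocytes. The controls, called WT in the labels, are described in the methods as Zeb2 fl/fl mice without Cre, so the floxed alleles and the infarct were common to both groups. All were adult mice, and the labels place the tissue at the border of the infarct where the methods name the remote zone. A group without Cre does not show what the recombinase itself does, and the RNA came from all cells of the tissue, so fewer cells of a type and less RNA per cell cannot be told apart.

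Metallothioneins are small cysteine-rich proteins that bind zinc and copper and buffer their free concentration. When cytosolic zinc rises, MTF1 binds zinc, enters the nucleus and activates genes with metal response elements in their promoters, among them Mt1, Mt2 and Slc30a1, so that zinc is bound or exported. Mt1 and Mt2 are also known to respond to glucocorticoids, interleukin 6 and oxidative stress, and they are counted among the protective stress genes of the heart, whereas Mt3 is best known from the brain and Mt4 from stratified epithelium.

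On build GRCm38 the metallothionein genes lie together on the plus strand of chromosome 8, in the order Mt4, Mt3, Mt2 and Mt1. Mt3 (ENSMUSG00000031760) spans 94152607 to 94154146, Mt2 (ENSMUSG00000031762) spans 94172664 to 94173568 and Mt1 (ENSMUSG00000031765) spans 94179082 to 94180327. The gap from Mt2 to Mt1 is 5513 bases, and Mt3 starts 20.1 kb before Mt2. Mtf1 (ENSMUSG00000028890) lies on chromosome 4 from 124802104 to 124849800, and Slc30a1 (ENSMUSG00000037434) on chromosome 1 from 191906767 to 191913247, both on the plus strand. Slc39a14 (ENSMUSG00000022094) lies on the minus strand of chromosome 14 from 70303469 to 70351425.

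The promoters of Mt1, Mt2 and Slc30a1 are shown because they hold the motif through which MTF1 acts on them. Sequences were RefSeq windows of build GRCm38.p6, from 250 bases before to 50 bases after the RefSeq start, written on the plus strand 5′ to 3′ around the matches. Capitals mark the core of the metal response element, searched as TGCACNC or TGCGCNC on both strands, with overlapping matches counted once. Minus-strand matches appear as their reverse complement. The stretches before the annotated starts come first for each gene, followed by the stretch past a start.
Mt1, chr8:94179056-94179081: ggtcccgctgTGCACACtggcgctcc
Mt1, chr8:94179089-94179117: tcTGCACTCcgcccgaaaagTGCGCTCgg
Mt2, chr8:94172385-94172617: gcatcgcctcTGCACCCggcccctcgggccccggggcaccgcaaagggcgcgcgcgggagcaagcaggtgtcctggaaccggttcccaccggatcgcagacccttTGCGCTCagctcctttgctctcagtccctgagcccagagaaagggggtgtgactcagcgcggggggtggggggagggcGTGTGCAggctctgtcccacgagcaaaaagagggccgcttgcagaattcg
Mt2, chr8:94172618-94172639: ggtcGTGCGCAggcccaggggc
Slc30a1, chr1:191906728-191906766: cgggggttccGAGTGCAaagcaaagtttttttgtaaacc
Slc30a1, chr1:191906800-191906828: gcctccgggccGAGCGCAgtcgccgcgga

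The Mt2 window held 4 matches of the metal response element core and the Mt1 window 3, whereas 0.295% of all 32851 promoter windows held at least 4 and 1.31% at least 3. Slc30a1 had 2 matches, a number reached by 6.14% of windows. Mt3 had 1 match, past its start, and Mtf1 had 0, beside 25.7% of windows with at least 1. A match is a run of letters and not a site known to be bound. The core letters bound by ZEB2, CACCT on either strand, occurred once in the windows of Mt2 and Mt3, 2 times in that of Mtf1 and 0 times in those of Mt1 and Slc30a1, against 51.9% of all windows with at least 1. The core of the antioxidant response element, TGACNNNGC, occurred once in Mt2, 79 bases before its start, and once in Slc30a1, and 12.4% of windows held at least 1. The promoter of Slc39a14 was not analysed here.

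Total counts were between 37.3 and 51.1 M per library, and between 60.5 and 67.0% of them fell in mitochondrially encoded genes. A single mitochondrial ribosomal RNA, mt-Rnr2, took 50.3 to 57.1% of all counts, which left 14301225 to 19024394 counts per library outside the mitochondrial genes. Levels are given as CPM, read counts scaled to the library size after TMM normalization. The library of WT replicate 2 stood apart, with a median correlation of log2 CPM with the other libraries of 0.939 against 0.982 to 0.985 for the rest. Summed over 10 fibroblast markers, WT replicate 2 had 10075 CPM and the other 5 libraries had between 1762 and 2406 CPM. Its sum over 10 macrophage markers was 888 CPM against 223 to 313 CPM, and its sum over 10 cardiomyocyte markers was 32636 CPM against 54087 to 66158 CPM. The defining cardiomyocyte markers, Myh6, Tnnt2 and Ttn among them, were detected at high levels, and no marker of these 3 lists was at 0 counts in all libraries. Zeb2 itself was at 61.3, 116.05 and 71.9 CPM in WT and at 59.6, 72.6 and 66.5 CPM in Zeb2 cKO replicates 1, 2 and 3, with a log2 fold change of -0.33 (SE 0.25) that became -0.0058 without WT replicate 2. The whole-tissue level of Zeb2 therefore does not separate the genotypes, and the values of the 6 genes are given with and without WT replicate 2.

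Mt2 was lower on average in Zeb2 cKO hearts. Its level was 5.50, 4.97 and 9.87 CPM in WT replicates 1, 2 and 3 (6.78 ± 2.69, mean ± SD, n = 3), whereas Zeb2 cKO replicates 1, 2 and 3 had 3.36, 2.72 and 6.16 CPM (4.08 ± 1.83, SD, n = 3). The groups overlapped: Zeb2 cKO replicate 3, the highest knockout library, was above WT replicates 1 and 2. The log2 fold change, Zeb2 cKO minus WT, was -0.73 (SE 0.38), which is 0.604 of the WT level. It was -0.90 (SE 0.37) without WT replicate 2. The value rested more on the library that was highest in each group: it was -0.36 without WT replicate 3 and -1.16 without Zeb2 cKO replicate 3. The counts behind these levels were 118 to 379 per library.

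Mt1, the more abundant of the pair, was at 25.7, 16.1 and 26.4 CPM in WT (22.7 ± 5.74, SD, n = 3) and at 17.2, 17.4 and 21.4 CPM in Zeb2 cKO (18.6 ± 2.36, SD, n = 3). WT replicate 2 was the lowest of all 6 libraries, so the groups overlapped. The log2 fold change was -0.29 (SE 0.21). Without WT replicate 2 it was -0.48 (SE 0.12), and the other WT libraries were then both above the 3 Zeb2 cKO libraries. That separation follows from leaving out the lowest WT value and was not tested.

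Mt1 and Mt2 did not keep a fixed proportion. The ratio of Mt1 to Mt2 CPM was 4.68, 3.25 and 2.67 in WT (3.53 ± 1.03, SD, n = 3) and 5.11, 6.40 and 3.47 in Zeb2 cKO (4.99 ± 1.47, SD, n = 3), with overlap between the groups. Replicate 3 had the smallest ratio and the most Mt2 within each group. Taken as a sum, Mt1 and Mt2 were at 31.2, 21.1 and 36.2 CPM in WT and at 20.5, 20.1 and 27.5 CPM in Zeb2 cKO. The lowest WT library, replicate 2, lay within the Zeb2 cKO range.

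Mt3 was at trace level, with 5, 4 and 5 counts in WT and 12, 18 and 17 counts in Zeb2 cKO. This corresponded to 0.133, 0.0911 and 0.130 CPM in WT (0.118 ± 0.0233, SD, n = 3) and to 0.240, 0.415 and 0.316 CPM in Zeb2 cKO (0.324 ± 0.0877, SD, n = 3). The groups did not overlap, and the log2 fold change was 1.44 (SE 0.38), or 1.28 (SE 0.46) without WT replicate 2. Exact 95% Poisson intervals, which cover counting error only, reached up to 11.7 counts for WT replicates 1 and 3 and down to 6.20 counts for Zeb2 cKO replicate 1, so they overlapped. Mt3 passed the filter on low counts only through the Zeb2 cKO libraries, in which it was higher. The 4th gene of the cluster, Mt4, had 0 counts in every library, which allows up to 0.0558 to 0.0796 CPM if 3 counts are taken as the limit.

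**Figure D1:**
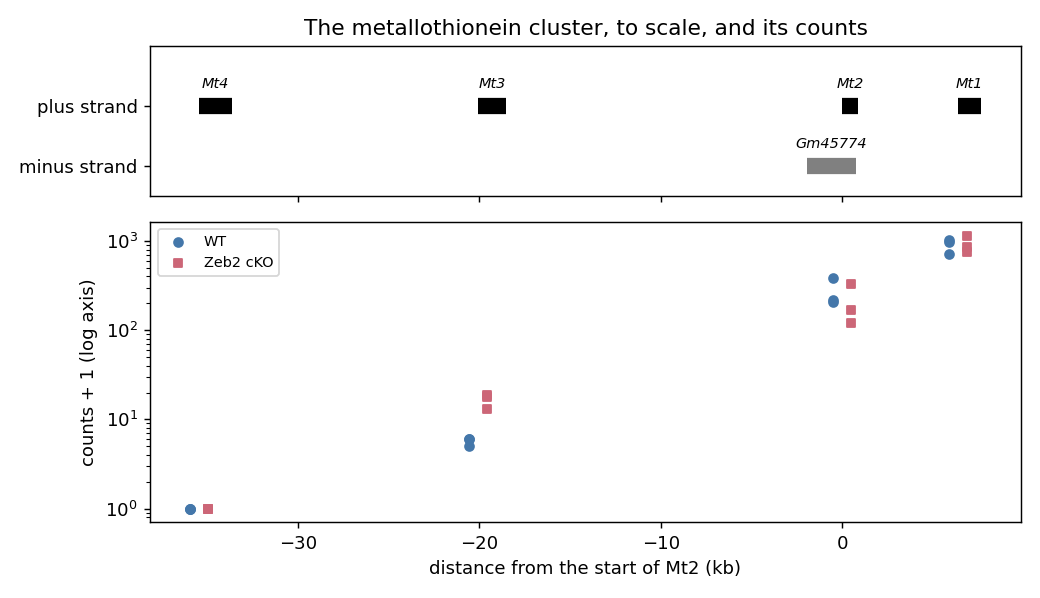
The top panel draws the metallothionein genes and the antisense gene Gm45774 to scale by strand, with the distance from the start of Mt2 in kb on the x axis. The bottom panel gives counts + 1 per library on a log axis for WT (circles) and Zeb2 cKO (squares), set slightly apart at each gene: Mt4 had 0 counts, Mt3 4 to 18, Mt2 118 to 379 and Mt1 708 to 1148.

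Mtf1, which encodes the zinc sensor, was at 11.5, 7.88 and 9.14 CPM in WT (9.50 ± 1.82, SD, n = 3) and at 9.19, 8.57 and 8.71 CPM in Zeb2 cKO (8.83 ± 0.326, SD, n = 3). All Zeb2 cKO libraries lay within the WT range. The log2 fold change was -0.11 (SE 0.16), and its sign depended on 1 control library, with 0.054 without WT replicate 1 and -0.22 (SE 0.13) without WT replicate 2.

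Slc30a1, which exports zinc across the plasma membrane, was at 12.7, 9.23 and 12.3 CPM in WT (11.4 ± 1.89, SD, n = 3) and at 12.9, 12.4 and 12.7 CPM in Zeb2 cKO (12.7 ± 0.277, SD, n = 3). The lowest value was again that of WT replicate 2, and the other 5 libraries were close together. The log2 fold change of 0.15 (SE 0.15) became 0.024 (SE 0.097) without that library.

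Slc39a14, which imports zinc as well as iron and manganese, was at 38.8, 35.1 and 45.9 CPM in WT (39.9 ± 5.51, SD, n = 3) and at 41.9, 35.7 and 43.2 CPM in Zeb2 cKO (40.3 ± 3.97, SD, n = 3). The groups overlapped almost entirely. The log2 fold change was 0.013 (SE 0.15), and -0.069 (SE 0.12) without WT replicate 2.

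**Figure D2:**
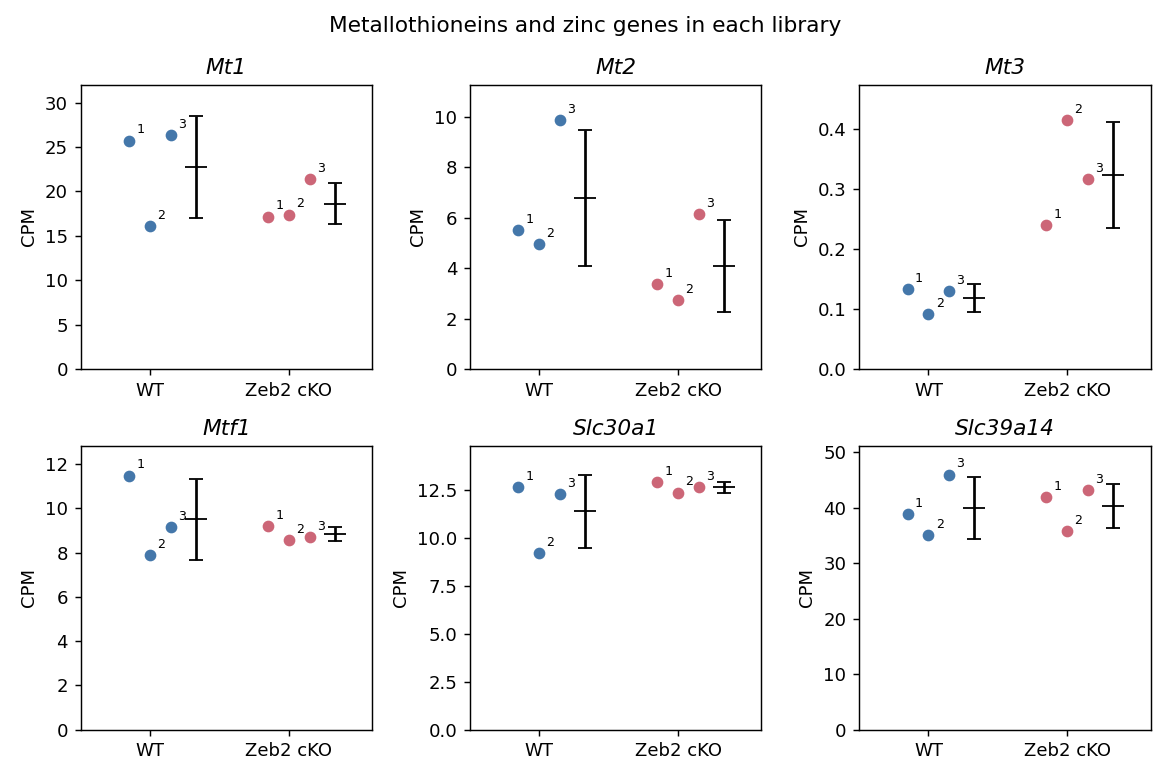
CPM on the y axis, starting at 0, in each of the 6 libraries, with WT and Zeb2 cKO on the x axis and the replicate number beside each point. Bars show the mean ± SD of 3 libraries: the groups are apart only for Mt3, at 0.118 and 0.324 CPM, and overlap for the other 5 genes.

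Of the 6 genes, 3 had a log2 fold change below 0 and 3 above, beside 51.4% of all tested genes below 0. One of the 6, Mt3, had groups that did not overlap, with every Zeb2 cKO library higher. Over all tested genes 3.39% lay that way and 2.97% lay with every Zeb2 cKO library lower. At an adjusted p of 0.05, edgeR's quasi-likelihood test called 0 genes in the whole table, 0.0% of those tested. At an unadjusted p under 0.05 it listed 127 genes as lower (0.861%) and 153 as higher (1.04%). At an adjusted p under 0.05 DESeq2 called 2 genes, neither of them among the 6. Nothing is read from these shares about the 6 genes, since the contrast had a part in choosing them.

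WT replicate 2 was the lowest of all 6 libraries in 5 of the 6 genes, with Mt2 as the exception. This was the library with the fewest cardiomyocyte marker counts and the most fibroblast and macrophage marker counts, and the part of this composition in the values of the 6 genes was not tested. The signs of Mt1, Mt2, Mt3 and Slc30a1 were the same whichever of the 6 libraries was left out, whereas those of Mtf1 and Slc39a14 were not.

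**Figure D3:**
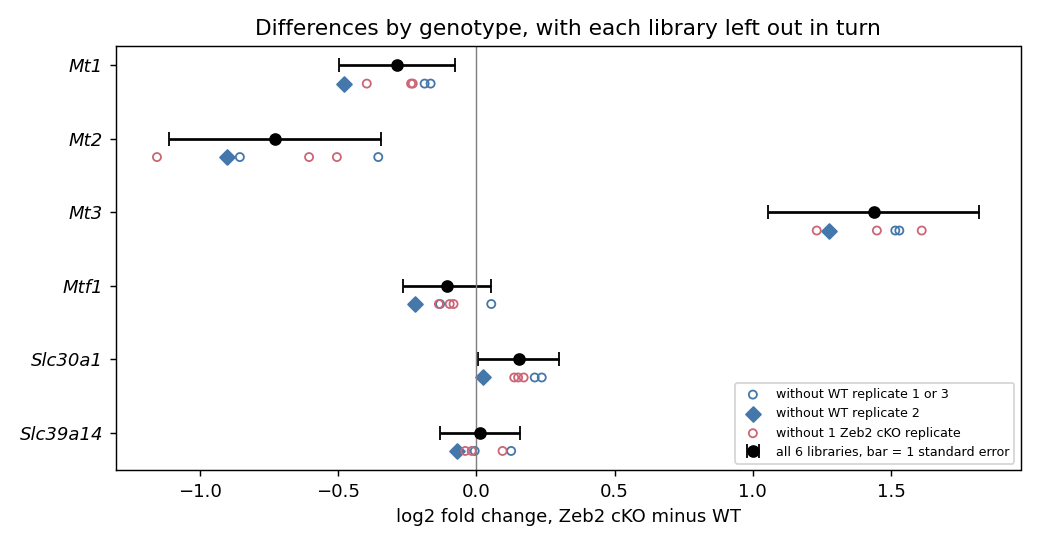
Log2 fold change, Zeb2 cKO minus WT, on the x axis for each gene on the y axis, where black points are estimates from all 6 libraries with bars of 1 standard error and coloured points leave out 1 library each. The spread is widest for Mt2, from -1.16 to -0.36, and the filled diamonds mark the values without WT replicate 2.

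The levels of the 6 genes against each other, which had no part in choosing them, were compared as CPM per kb of annotated exon. Mt1 was the highest at 16.6 ± 3.63 CPM per kb (SD, n = 6 libraries), followed by Mt2 at 9.23 ± 4.31, Slc39a14 at 3.80 ± 0.408, Slc30a1 at 2.29 ± 0.265, Mtf1 at 1.03 ± 0.138 and Mt3 at 0.207 ± 0.119 (SD, n = 6 each). Each gene exceeded the next in this order in 6 of 6 libraries. The order was set by the means of these same libraries, so the tests that follow say only how alike it was from library to library. The mean log2 difference within a library was 0.95 (SD 0.47) for Mt1 above Mt2 and 1.16 (SD 0.57) for Mt2 above Slc39a14. It was 0.73 (SD 0.16) for Slc39a14 above Slc30a1, 1.16 (SD 0.17) for Slc30a1 above Mtf1 and 2.51 (SD 0.89) for Mtf1 above Mt3. In an exact sign-flip permutation test, two-sided, each of the 5 pairs gave p = 0.03125, the smallest that 6 libraries allow, and the Benjamini-Hochberg adjusted p was also 0.03125. With the length of the longest transcript in place of all exons, Mt2 and Slc39a14 did not separate: Mt2 was higher in 4 of 6 libraries, by 0.32 on the log2 scale (exact p = 0.21875).

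**Figure D4:**
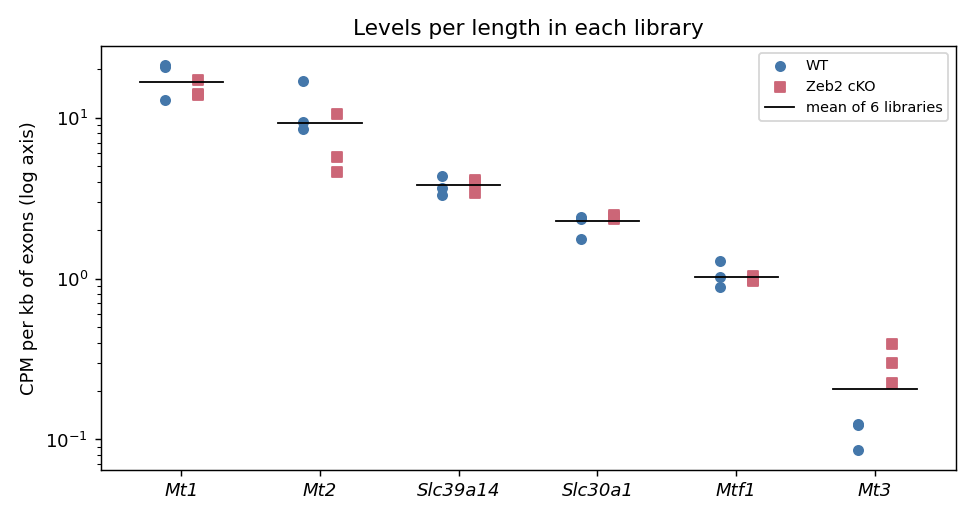
CPM per kb of exon on a log axis for the 6 genes in order of their mean, with circles for WT, squares for Zeb2 cKO and a line at the mean of the 6 libraries. The means fall from 16.6 CPM per kb for Mt1 to 0.207 for Mt3, and Mt2 is the most widely spread of the 5 genes that are well above trace level.

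The metallothioneins were distinct enough in sequence for their reads to be told apart. The longest transcript of Mt1 shared no stretch of at least 75 bases and 95% identity with another gene, and its best match, to Mt2, had 82.6% identity over 92 bases. Mt3 likewise shared no such stretch, with 76.0% identity to Mt2 over 125 bases. Antisense genes overlap some of the set: Gm45774 shares 56.6% of the Mt2 transcript, 1110065P20Rik 9.45% of that of Mtf1 and 1700034H15Rik 8.94% of that of Slc30a1. The libraries were stranded, but the strand setting of the counting was not given in the sources used here, so reads of these 3 genes and their antisense partners may not have been told apart. 1110065P20Rik was at 1.84 to 3.24 CPM and 1700034H15Rik at 0.0911 to 0.279 CPM. Gm45774 was not among the genes counted, so it had no values.

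The genes most like Mt1 and Mt2 across the 6 libraries were sought among the 12326 genes with a mean of at least 1 CPM, by Pearson's r of log2 CPM. Mt1 was followed most closely by Hecw2 (r = 0.978), an unnamed gene, ENSMUSG00000096603 (r = 0.978), Fads3 (r = 0.975), Hspb1 (r = 0.975) and Il17rc (r = 0.968). Mt2 was followed by Prkx (r = 0.995), Trip12 (r = 0.992), Pop1 (r = 0.991), Gm9917 (r = 0.979) and Xk (r = 0.978). The lists had no gene in common, and Mt2 was only the 507th gene by likeness to Mt1 (r = 0.759, Spearman's rho = 0.714). Mt1 was the 268th by likeness to Mt2. These values describe 6 points that share the genotype groups and the composition of each library, and the highest r among many genes is high with so few points.

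Other zinc transporters gave a background for Slc30a1 and Slc39a14. Of 9 further genes of the SLC30 family, listed here as zinc exporters, 5 were tested, and 4 were below 0 and 1 above. Their median log2 fold change was -0.051 beside -0.0069 over all tested genes. Slc30a4, an exporter into vesicles, had -0.22 (SE 0.14), Slc30a7, which loads the secretory pathway, -0.12 (SE 0.19), and Slc30a9 0.16 (SE 0.16). Of 13 further SLC39 importers, 10 were tested, and 8 were below 0 and 2 above, with a median of -0.18. The largest differences were in Slc39a6 at -0.43 (SE 0.34) and Slc39a2 at 0.62 (SE 0.61), and Slc39a3 had -0.20 (SE 0.13). Without WT replicate 2, Slc39a6 had 0.031 and Slc39a2 0.31. Slc39a2 was at trace level, with 0.0911 to 0.360 CPM. None of these transporters passed an adjusted p of 0.05 or an unadjusted p of 0.05 in edgeR's test. The negative lean rested on WT replicate 2, in which the SLC39 list summed to 98.8 CPM against 69.6 to 79.9 CPM in the other libraries. Without it, the median was 0.082 for the importers, with 1 of 10 below 0, and 0.088 for the exporters, with 1 of 5 below 0. The exception among the importers, Slc39a3, then had -0.28 and was the 1 gene of the list lower at an unadjusted p under 0.05, where 1.08% of all genes were.

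**Figure D5:**
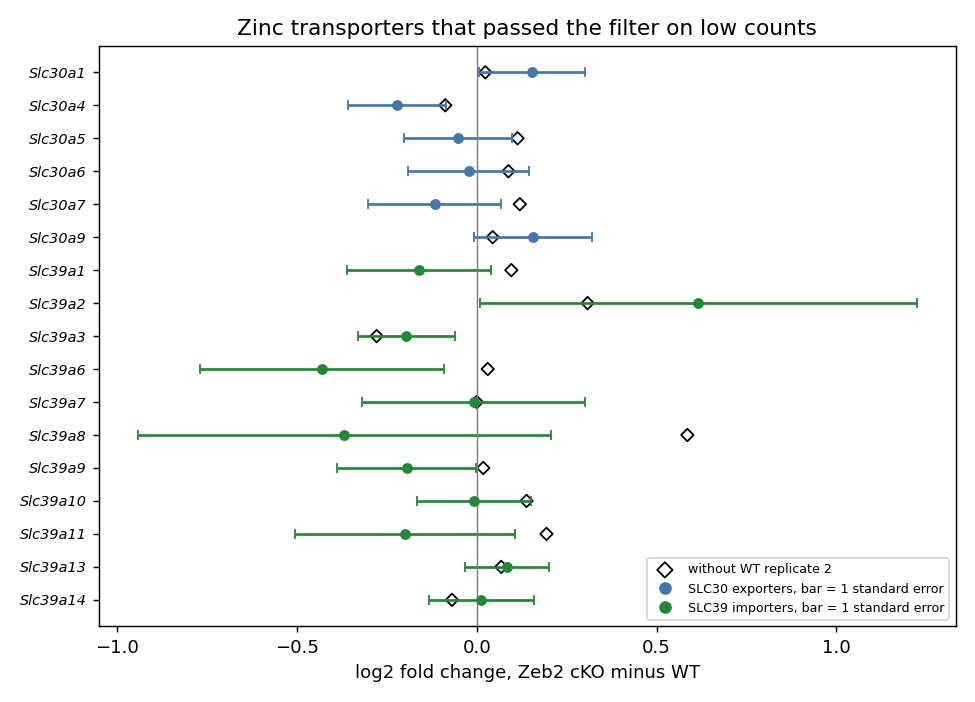
Log2 fold change, Zeb2 cKO minus WT, on the x axis for every tested SLC30 exporter (blue) and SLC39 importer (green), with bars of 1 standard error, and open diamonds for the value without WT replicate 2. Most diamonds lie to the right of the points for the importers, whose median, Slc39a14 not included, moved from -0.18 to 0.082.

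Metallothioneins also bind copper. Of 11 genes of copper handling 10 were tested, 5 below and 5 above 0, with a median of -0.0097, and none passed either threshold. Without WT replicate 1, 1 of them passed the unadjusted threshold. The values for ceruloplasmin (Cp), a copper-carrying ferroxidase, for the copper pump Atp7a and for the copper chaperone Atox1 were -0.36 (SE 0.22), -0.28 (SE 0.20) and -0.22 (SE 0.17) on the log2 scale. Without WT replicate 2 they were -0.24, -0.094 and -0.041. Slc39a14 also carries iron, and of 18 genes of iron handling 16 were tested, 12 below and 4 above 0, with a median of -0.13. The iron exporter Slc40a1 (ferroportin) was at 8.39, 15.5 and 6.98 CPM in WT and at 5.18, 5.76 and 8.04 CPM in Zeb2 cKO, a log2 fold change of -0.70 (SE 0.33). It was -0.28 without WT replicate 2, its highest library. Bmp6, which induces hepcidin, had -0.45 (SE 0.25) and Ireb2, which binds iron-responsive elements, -0.23 (SE 0.15), and without WT replicate 2 they had -0.16 and -0.099. None of the iron genes passed either threshold with all 6 libraries and the filter on low counts. At an unadjusted p under 0.05 the number was 1 without WT replicate 1, WT replicate 3 or Zeb2 cKO replicate 3, and 2 without the filter. The median of the iron list was -0.26 without WT replicate 1 and -0.076 without WT replicate 2.

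The signals known to induce Mt1 and Mt2 were described by 3 lists. Of 17 glucocorticoid-responsive genes 16 were tested, and 14 were below 0 and 2 above, with a median of -0.19. Ddit4, an inhibitor of mTOR signalling, was the 1 gene lower at an unadjusted p under 0.05, beside 0.861% of all genes. It was at 7.19, 4.15 and 4.69 CPM in WT and at 2.50, 2.74 and 4.37 CPM in Zeb2 cKO, with overlap, and its log2 fold change was -0.73 (SE 0.30; edgeR adjusted p = 0.957), or -0.88 without WT replicate 2. Fkbp5, a chaperone of the glucocorticoid receptor, had -0.57 (SE 0.27) and the transcription factor Cebpd -0.63 (SE 0.35), but these were -0.24 and -0.13 without WT replicate 2. The median of the list was further from 0 without that library, at -0.29, with 15 of 17 tested genes below 0. At an unadjusted p under 0.05, 4 were lower, where 1.08% of all genes were. These values depended on the libraries used. The median was -0.038 without WT replicate 1 and -0.49 without Zeb2 cKO replicate 3, where 3 genes of the list passed the unadjusted threshold. The number passing was 0 without WT replicate 3, without Zeb2 cKO replicate 1, without Zeb2 cKO replicate 2 or with the replicate number as a block. The summed CPM of the list did not order the groups, at 737, 402 and 616 in WT and 535, 526 and 814 in Zeb2 cKO.

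Of 15 genes of interleukin 6 signalling and the acute phase, all tested, 11 were below 0 and 4 above, with a median of -0.45. It was -0.10 without WT replicate 2, which had the highest sum of this list at 431 CPM against 182 to 223 CPM. Of these genes, 2 were lower at an unadjusted p under 0.05, Junb and Il6, beside 0.861% of all genes. The number at that threshold in either direction was 0 with the replicate number as a block and 0 without Zeb2 cKO replicate 1. It was 1 without WT replicate 2, Zeb2 cKO replicate 2 or Zeb2 cKO replicate 3, and 6 without WT replicate 1. Junb, an early-response transcription factor, was at 11.6, 7.31 and 9.22 CPM in WT and at 5.90, 7.05 and 6.07 CPM in Zeb2 cKO, without overlap. Its log2 fold change was -0.57 (SE 0.19; edgeR adjusted p = 0.957), and -0.72 without WT replicate 2. Il6 had -1.50 (SE 0.63), with levels of at most 1.39 CPM and the highest in WT replicate 2, and it had -0.57 without that library. Il6ra, its receptor, had -0.73 (SE 0.36) with groups that did not overlap, and -0.24 without WT replicate 2.

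Of 15 genes of the oxidative stress response, all tested, 8 were below 0 and 7 above, with a median of -0.090. The median turned to 0.032 without WT replicate 2, with 4 of 15 genes below 0. Slc7a11, the cystine transporter, was at 1.22, 0.319 and 0.443 CPM in WT and at 0.280, 0.138 and 0.261 CPM in Zeb2 cKO, without overlap. Its log2 fold change was -1.51 (SE 0.59; edgeR adjusted p = 0.957), or -1.84 without WT replicate 2, and it was the 1 gene of the list lower at an unadjusted p under 0.05, beside 0.861% of all genes. When any 1 of the 3 Zeb2 cKO libraries was left out, 0 genes of the list passed that threshold in either direction, and 2 did without WT replicate 1. Nqo1, a quinone reductase, lay the other way without overlap, at 22.9, 18.0 and 23.6 CPM in WT and at 26.4, 29.2 and 24.4 CPM in Zeb2 cKO. Its log2 fold change was 0.31 (SE 0.14), and 0.20 without WT replicate 2. In the list, 1 gene had every Zeb2 cKO library lower than WT and 2 genes had every one higher. Over all tested genes these shares were 2.97% and 3.39%. Hmox1, which degrades haem, had -0.61 (SE 0.34), and -0.15 without WT replicate 2. The stress genes thus did not lie on 1 side.

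Cell type markers were read beside these values. All 10 fibroblast markers and all 10 macrophage markers were below 0, with medians of -1.03 and -0.86, and these medians were 0.14 and 0.029 without WT replicate 2. Of the 10 cardiomyocyte markers 8 were above 0, with a median of 0.16, and of the 10 endothelial markers 7, with a median of 0.15. Both medians turned without that library, to -0.097 and -0.0046. The 6 red cell markers had a median of 0.021. Of 10 adipocyte markers 5 were tested, all above 0, with a median of 0.51, and 0.63 without WT replicate 2. Adig, at 0.0684 to 0.106 CPM in WT and 0.230 to 0.400 CPM in Zeb2 cKO, had a log2 fold change of 1.83 (SE 0.41). Like Mt3, it passed the filter on low counts only through the Zeb2 cKO libraries, so its difference carries no weight as a call. The part of these cell types in the levels of the 6 genes was not tested. Without WT replicate 2 the log2 fold changes of Mt1 and Mt2 were -0.48 and -0.90, and the cardiomyocyte median was then below 0 as well. For Mt1 this leaves out its lowest library, so these values cannot show whether cell composition had a part.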

How the data were processed

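RNA-seq libraries of 3 WT and 3 Zeb2 cKO hearts were assigned to groups from the sample titles. The authors deposited 1 table of raw read counts per gene. According to the methods, RNA without ribosomal RNA was made into stranded libraries, and reads were aligned and counted with the STAR workflow on Gencode M4 (GRCm38). The strand option and the handling of reads with several matches were not given in the sources used here. Columns not matched to a sample numbered 0.

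Symbols, coordinates and transcripts came from Gencode M21 by gene identifier (36345 of 38293 genes had an entry), and promoter windows from RefSeq (5 of the 6 genes had one). Counts were normalized with TMM and tested with glmQLFit and glmQLFTest in edgeR 4.0.16 (R 4.3.3), after filterByExpr with its defaults (minimum count 10), with Benjamini-Hochberg adjustment over 14746 genes. DESeq2 1.42.0 was an alternative. Near copies were sought with BLAST 2.17.0, and exact tests used scipy 1.17.1. Fits were tested on simulated data.

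The 6 genes, the gene lists and the tests were chosen with earlier results of these data known. Named were the 6 genes, Mt4, Zeb2, the 3 genes of each list with the smallest p, and the 5 genes most like Mt1 and Mt2; not all are printed. At 37.3 to 51.1 M counts per library, and 14301225 to 19024394 without mitochondrial genes, counting error is small except for genes of few counts such as Mt3. Values are of separate animals, and with 3 animals a group the smallest two-sided exact permutation p is 0.1.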

Additional observations from a re-analysis of the deposited data

How the results depend on the processing

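The 6 log2 fold changes moved by less than the spread between replicates under every alternative that kept all 6 libraries and gave a value. Leaving out 1 of 3 libraries can hardly move a group mean by more than that spread, so this measure cannot judge it. Only Mtf1 and Slc39a14, both near 0, changed sign. Apart from leaving out libraries, Mt1 ranged from -0.29 to -0.26, Mt2 from -0.75 to -0.71 and Mt3 from 1.18, with a prior count of 2, to 1.46. With mitochondrially encoded genes left out, Mt3 did not pass the filter and has no value. Leaving out 1 library gave -0.48 to -0.17 for Mt1, -1.16 to -0.36 for Mt2, 1.23 to 1.61 for Mt3, -0.22 to 0.054 for Mtf1, 0.024 to 0.24 for Slc30a1 and -0.069 to 0.13 for Slc39a14.

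Genes called at an adjusted p under 0.05 numbered 0 in every edgeR fit and 2 with DESeq2. At an unadjusted p under 0.05, genes lower in Zeb2 cKO numbered 127, but 326 without a filter on low counts, 217 with DESeq2 and 47 (without Zeb2 cKO replicate 1) to 827 (without WT replicate 1) when 1 library was left out. Genes higher numbered 153, but 274 without a filter and 75 (without Zeb2 cKO replicate 1) to 307 (without WT replicate 1), with 232 without WT replicate 2. The cause was not tested.

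Replicate numbers recur in both groups, but the animals differ, and deviations of libraries with the same number correlated at 0.088, -0.14 and -0.087, so the numbers were not taken as pairs. With the replicate block, 100 genes were lower and 147 higher at an unadjusted p under 0.05, 0 were called, and Mt2 had -0.75, Mt1 -0.26 and Mt3 1.42.

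With 5 libraries the sign-flip test cannot give a p under 0.0625, so no pair in the order of levels can pass. The mean log2 differences were 0.82 to 1.07 for Mt1 above Mt2, 1.00 to 1.30 for Mt2 above Slc39a14, 0.69 to 0.77 for Slc39a14 above Slc30a1, 1.13 to 1.21 for Slc30a1 above Mtf1 and 2.33 to 2.75 for Mtf1 above Mt3. By the longest transcript, Mt2 above Slc39a14 was 0.32, since the longest transcript of Slc39a14 has 5117 bases and its exons together 10550.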
